A study of Homo sapiens with 17 samples.

Results

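The immediate early genes and MYC are 10 short-lived growth-response transcripts, FOS, FOSB, FOSL1, JUN, JUNB, JUND, EGR1, IER2, DUSP1 and MYC, taken by name from a count table of 23368 genes. Immediate early genes are switched on by growth signals within minutes, from factors already present in the cell, and most of their transcripts are short-lived. FOS and JUN proteins pair to form the transcription factor AP-1, EGR1 is a zinc finger transcription factor, IER2 is a small nuclear protein, and DUSP1 is a phosphatase that switches MAP kinases off. MYC, a transcription factor that promotes growth and ribosome production, is induced soon after them. They were followed in HEK293T cells, an established human embryonic kidney line, by acRIP-seq, in which RNA carrying N4-acetylcytidine (ac4C) is captured with an antibody.

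There were 6 groups in the series, all of the same line. WT cells gave 3 libraries of input RNA, 3 of anti-ac4C pull-down (IP) and 2 of pull-down with rabbit immunoglobulin G (IgG), and cells given siRNA against TARDBP, the gene of the RNA-binding protein TDP43, gave 3 of each kind (siTDP43). The labels of the WT libraries name no control siRNA, so transfection, loss of TDP43 and any batch of culture or sequencing cannot be told apart between WT and siTDP43. The study measured which transcripts are acetylated and how this depends on TDP43. Nothing in the labels ties libraries to separate cultures, so p-values measure the spread between libraries, which may be technical. Levels are given in CPM, counts scaled to a common library size by TMM over all 17 libraries.

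Total counts were 27718784 to 36583436 in WT input and 24542434 to 31030950 in siTDP43 input. The IP libraries held 19615316 to 21066215 (WT) and 8610070 to 15736165 (siTDP43). Totals were 9022250 to 9466855 in WT IgG and 3013989 to 3436811 in siTDP43 IgG, so that low levels were measured least well in siTDP43 IgG. TARDBP, the targeted gene, was at 149.7, 157 and 151 CPM in the WT inputs and 98.7, 102 and 106 CPM in the siTDP43 inputs. It was lower in 3 of 3 siTDP43 libraries, with a log2 fold change of -0.57 ± 0.05 (SE, adjusted p 6.55e-13 by edgeR). Its level was 67.2% of that in WT, and 32.5% of all genes tested had a lower log2 fold change. In the pull-downs TARDBP was at 105, 110.3 and 110.3 CPM in WT IP, 82.4 and 90.3 CPM in WT IgG, 67.5, 60.6 and 64.03 CPM in siTDP43 IP and 88.1, 65.96 and 58.00 CPM in siTDP43 IgG. Of 7 markers of HEK293T cells, 6 were above 1 CPM in every input library, and their summed level was 1242 to 1273 CPM in WT and 633 to 679 CPM in siTDP43. VIM was the largest part of that sum, at 773 to 799 CPM in WT and 253 to 271 CPM in siTDP43, and KRT8, KRT18 and NEFM were lower too, while NEFL (63.9 to 67.1 CPM in WT, 179 to 192 CPM in siTDP43) and CDH2 (21.6 to 24.01 and 41.98 to 46.0 CPM) were higher in siTDP43. PAX2, the marker not above 1 CPM in every input, was at 0.314 to 1.37 CPM in WT and 0.0631 to 0.158 CPM in siTDP43. Of 8 markers of other cells, PTPRC, PECAM1 and HBB had no count in any input. COL1A1 (6.50 to 7.74 CPM in WT, 1.21 to 2.14 CPM in siTDP43) and CD68 (3.90 to 4.87 and 1.70 to 2.65 CPM) were above 1 CPM in every input. DES was so in WT only (2.31 to 3.79 CPM). The summed level of the 8 was 14.0 to 15.8 CPM in WT and 3.69 to 5.54 CPM in siTDP43. Whether these shifts play a part in the results was not tested.

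The 10 transcripts differ in the sequence features that bear on decay and on the base that is acetylated. ATTTA, the core of AU-rich elements that mark RNA for rapid decay, was found on the transcript strand of 9 of the 10 genes, overlapping matches counted, against 77.5% of the 9371 genes with exons of the same summed length (1668 to 3776 bases). FOS held 5 copies, DUSP1 and MYC 4 each, and IER2 none. Matches were counted over whole exons, coding sequence included, so a match need not lie in an AU-rich element. GC content of the exons ran from 52.6% in FOS to 69.7% in JUND, above the median of 49.3% over 23093 genes in all 10. The 30-base windows with the most ATTTA of FOS (chr14:75748760-75748789, plus strand, 148 bases before the end of its exon 4) and DUSP1 (chr5:172195644-172195673, minus strand, 551 bases before the end of its exon 4) are shown with ATTTA in capitals. The stretches of JUND (chr19:18390997-18391026, minus strand) and JUNB (chr19:12903974-12904003, plus strand), each in the only exon of its gene, are the 30-base windows richest in cytidine and are shown with C in capitals. All are hg19, written 5′ to 3′.
FOS: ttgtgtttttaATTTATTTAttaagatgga
DUSP1: ggctggtccttATTTATTTAacttcacccg
JUND: CCCCCCCgCCCtCgCgCtgCCtCtttCCCC
JUNB: CCCCCgCCCCCtgCCCtCCCCtCtCtgCaC

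C made up 36.1% of the exon bases of JUND and 33.9% of those of JUNB, against a median of 24.4% over all genes. The windows printed for JUND and JUNB held 20 and 21 cytidines. These matches describe the letters only, not a modified base or a bound protein.

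In input RNA, 8 of the 10 genes were lower in siTDP43 than in WT and 2, IER2 and MYC, were higher. The libraries of the 2 genotypes did not overlap for any of them. The share of all genes without overlap was not counted. All 10 passed the filter on low counts. Over all 14036 genes tested 40.6% were called lower and 38.6% higher (edgeR adjusted p under 0.05), so change as such was common. The median log2 fold change of the 10 genes was -1.78, against -0.05 over all genes tested. In bulk RNA, fewer cells that express a gene and less RNA per cell cannot be told apart.

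FOS, the founding partner in AP-1, was at 4.43, 4.94 and 4.62 CPM in the WT inputs and 2.02, 1.66 and 1.28 CPM in the siTDP43 inputs. Every siTDP43 library lay below every WT library, and the log2 fold change was -1.48 ± 0.22 (SE, adjusted p 3.61e-07 by edgeR). FOSL1, also called FRA1, fell most of the 10 genes, from 2.98, 2.60 and 2.62 CPM to 0.631, 0.317 and 0.284 CPM. These levels rest on 90, 102 and 92 counts against 20, 8 and 8 counts, with a log2 fold change of -2.69 ± 0.34 (SE, adjusted p 2.83e-08 by edgeR). FOSB was the rarest member, with 20, 16 and 38 counts in WT and 6, 10 and 4 in siTDP43. Its log2 fold change of -1.57 ± 0.56 (SE, adjusted p 0.0121 by edgeR) lost its call without WT input replicate 3 (-1.13), without siTDP43 input replicate 3 (-1.30) and with a GC trend removed from each library (-1.20).

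The JUN family fell in all 3 members. JUN was the most abundant of them, at 251, 249.8 and 241 CPM in WT input and 121, 119 and 118 CPM in siTDP43 input, a log2 fold change of -1.05 ± 0.04 (SE, adjusted p 2.30e-20 by edgeR) with little spread within either genotype. JUNB, a weaker activator than JUN, went from 19.7, 20.8 and 21.98 CPM to 5.17, 3.01 and 5.39 CPM, with a log2 fold change of -2.18 ± 0.14 (SE, adjusted p 2.91e-15 by edgeR). JUND, the member least dependent on growth signals, was low in both inputs, at 6.75, 5.39 and 4.93 CPM in WT and 1.14, 1.43 and 1.70 CPM in siTDP43. Its log2 fold change of -1.996 ± 0.22 (SE, adjusted p 1.03e-09 by edgeR) was not called with a GC trend removed from each library, when it was -0.41 (edgeR adjusted p 0.0964), and that of JUNB was -1.12.

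EGR1 was scarce in input RNA, with 48, 62 and 63 counts in the WT libraries and 12, 9 and 8 in siTDP43. At 1.59, 1.58 and 1.80 CPM against 0.378, 0.356 and 0.284 CPM, it fell by a log2 fold change of -2.26 ± 0.40 (SE, adjusted p 6.41e-06 by edgeR). DUSP1 was abundant in WT input, at 176, 165 and 169.7 CPM, and stood at 33.1, 32.9 and 32.7 CPM in siTDP43 input. The siTDP43 libraries differed among themselves by less than 1 CPM, and the log2 fold change was -2.36 ± 0.05 (SE, adjusted p 4.09e-27 by edgeR), or 19.5% of the WT level.

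IER2 and MYC went the other way. IER2 was at 18.9, 19.2 and 19.3 CPM in WT input and 30.1, 31.1 and 24.1 CPM in siTDP43 input, a log2 fold change of 0.58 ± 0.09 (SE, adjusted p 8.40e-07 by edgeR), which became 1.42 with the GC trend removed. MYC was at 141, 143 and 139 CPM in WT input and 196, 189 and 168 CPM in siTDP43 input. Its rise was the smallest change of the 10 genes, with a log2 fold change of 0.39 ± 0.05 (SE, adjusted p 1.51e-08 by edgeR), and all siTDP43 libraries lay above all WT libraries. MYC thereby became the gene with the highest level per length of the 10 in siTDP43 input, at 77.9 CPM per kilobase of exon, while DUSP1 was highest in WT input at 84.00.

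**Figure D1:**
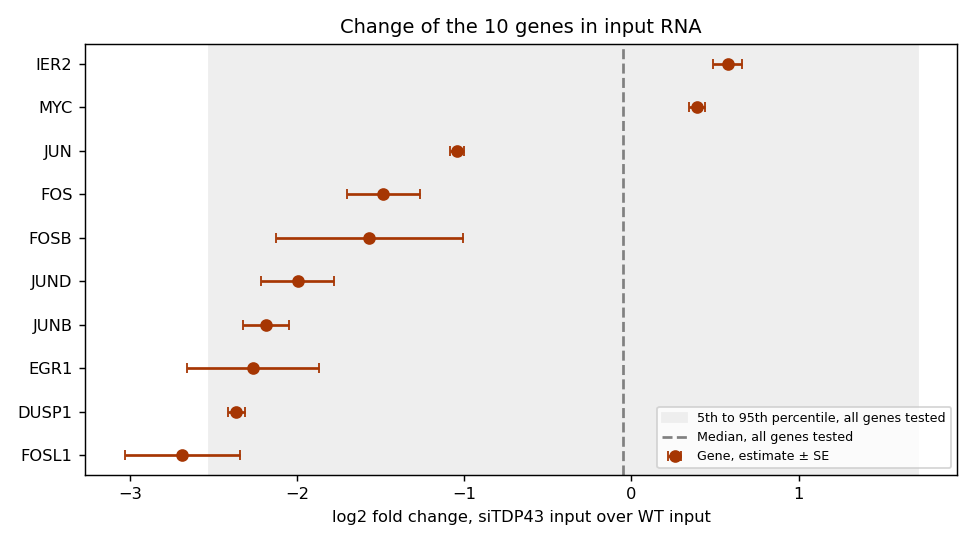
Log2 fold change of each gene in input RNA, siTDP43 over WT (x axis), estimate ± SE from edgeR, with 3 libraries in each group. The grey band spans the 5th to 95th percentile and the dashed line the median of all 14036 genes tested; IER2 (0.58) and MYC (0.39) lie right of 0 and the other genes between -1.05 and -2.69.

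Per exon length, the make-up of both AP-1 families differed between the groups. JUN gave 83.7 ± 0.495% (SD, n = 3) of the JUN family's CPM per kilobase in WT input and 91.7 ± 1.78% (n = 3) in siTDP43 input, with no overlap between the libraries. In input, JUND made up 3.42 ± 0.524% (n = 3) of the WT and 1.94 ± 0.396% (n = 3) of the siTDP43 family. Its share was 44.3 ± 2.35% (n = 3) when WT RNA had been pulled down with the ac4C antibody and 48.7 ± 3.96% (n = 2) with IgG, and the siTDP43 pull-downs held 33.1 ± 3.57% (n = 3) and 57.5 ± 3.85% (n = 3). Of the FOS family, FOSL1 made up 41.1 ± 2.95% (n = 3) in input and 63.3 ± 4.58% (n = 3) in IP of WT cells, but 22.3 ± 5.03% (n = 3) in siTDP43 input. These shares had no test.

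**Figure D2:**
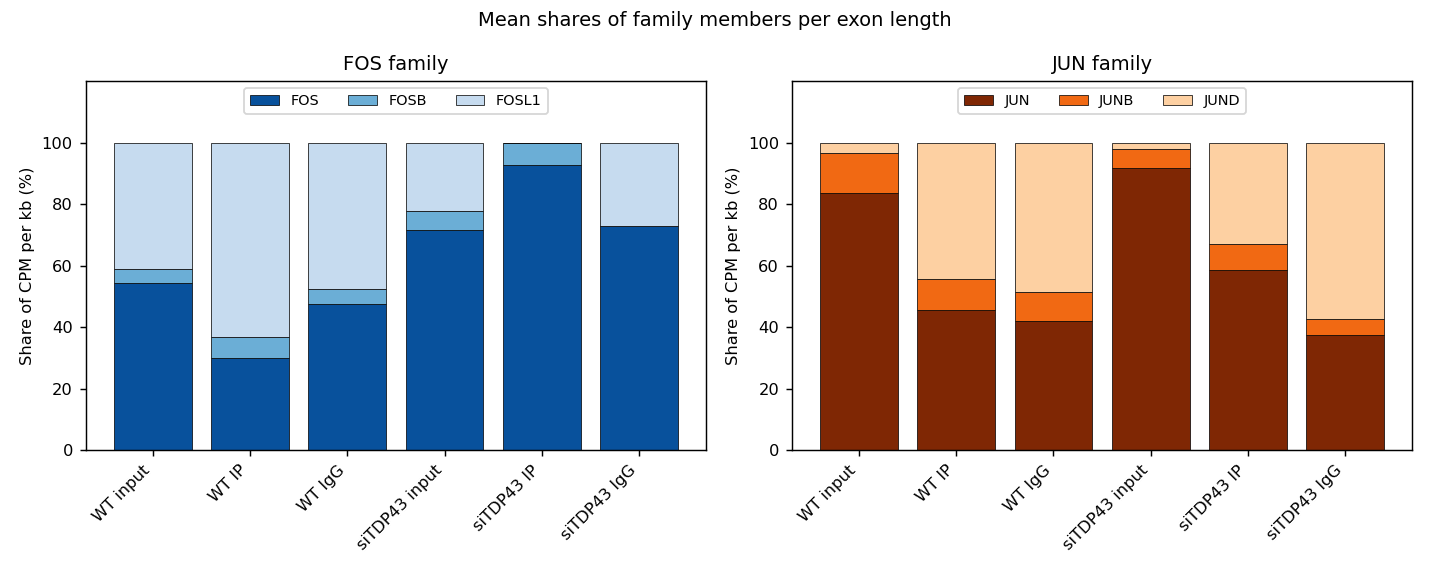
Mean share of each family member in the summed CPM per kilobase of exon (y axis, %) in the 6 groups (x axis), for the FOS family and the JUN family, each bar the mean over 2 or 3 libraries. JUND takes 3.42% of the JUN family in WT input and 48.7% in WT IgG.

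The other genes of the growth response were followed as 4 lists, to be read against the 40.6% of all genes called lower and 38.6% called higher. Of 42 further immediate early and growth response genes, 38 could be tested in input RNA, 30 were lower and 2 higher in siTDP43, with a median log2 fold change of -1.20. ATF3, a stress-induced transcription factor, was at 857 ± 10.6 CPM in WT input and 59.01 ± 1.08 CPM in siTDP43 input (SD, n = 3 each), and its log2 fold change was -3.85 (edgeR adjusted p 1.37e-34). CSRNP1, a nuclear protein induced by AXIN1, was at 19.2 ± 0.671 CPM in WT input and 2.38 ± 0.553 CPM in siTDP43 input (SD, n = 3 each). The 2 genes that rose were KLF6, a zinc finger transcription factor, at 30.2 ± 2.20 CPM in WT input and 173 ± 6.36 CPM in siTDP43 input (SD, n = 3 each), and BTG2, an antiproliferative gene, at 23.4 ± 0.746 CPM in WT input and 58.4 ± 6.05 CPM in siTDP43 input (SD, n = 3 each).

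Of 20 genes of serum response and MAP kinase signalling, 15 were lower and 4 higher, with a median of -0.79. MAP2K2, which encodes the kinase MEK2, was at 41.3 ± 1.98 CPM in WT input and 8.49 ± 0.597 CPM in siTDP43 input (SD, n = 3 each), and MAPK9, which encodes the kinase JNK2, fell by 1.63 on the log2 scale. Under the alternative ways of processing given below, the log2 fold change of MAP2K2 ran from -2.37 to -1.16. CREB1, a transcription factor that acts on the FOS promoter, rose by 0.98, and MKL2, a coactivator of serum response factor, by 0.71. The MYC network and MYC target transcripts showed calls in both directions. Of 11 network genes 7 were lower and 4 higher, with a median of -0.54, and among the higher was MAX, the partner through which MYC binds DNA, at 28.1 ± 2.32 CPM in WT input and 86.3 ± 5.02 CPM in siTDP43 input (SD, n = 3 each). MLX, a MAX-like protein, rose by 1.38, whereas MNT, a MAX-binding repressor, had -1.37 and MYCL1, a MYC relative, -1.35. Under the same alternatives the value of MNT ran from -1.82 to -0.72. Of 18 transcripts known as MYC targets, 9 were higher and 7 lower, with a median of 0.10. POLR1B, a subunit of RNA polymerase I, rose from 47.2 to 198 CPM and WDR43, a ribosome assembly factor, by 1.04 on the log2 scale. BOP1 and PPAN, also ribosome assembly factors, fell by 1.43 and 1.39, the latter at 1.36 CPM or less. With the GC trend removed PPAN was not called (-0.51, edgeR adjusted p 0.232), BOP1 had -0.29, and 12 of the MYC targets were higher and 4 lower.

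In WT cells the IP was set against input and against IgG, to ask which of the 10 transcripts the anti-ac4C antibody took up beyond background. Only EGR1 was called against both (edgeR adjusted p under 0.05 and over 2-fold), the definition of ac4C(+) used here, which 15.6% of 14751 genes met. The study defined its own ac4C(+) genes by ratios of FPKM, a level per length and depth, so its set can differ. FOSB was also over 2-fold higher in IP than in both, at 1.30 over input and 1.31 over IgG on the log2 scale, but its edgeR adjusted p over IgG was 0.0773. Against input, 6 of the 10 genes were higher, where 30.2% of all genes were, and 1, DUSP1, was lower, where 27.3% were. Against IgG, 1 was higher (35.2% of all genes) and 1 lower (17.8%). Between IgG and input, 3 were higher (24.4% of all genes) and 1 lower (36.6%). The median log2 fold change of the 10 genes was 1.29 for IP over input and 0.04 for IP over IgG, against 0.01 and 0.29 over all genes. Of the 42 further growth response genes, 40 were tested in WT, and 15 were higher and 4 lower in IP than in IgG.

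EGR1 was at 8.80, 9.47 and 10.1 CPM in WT IP and 1.59, 1.58 and 1.80 CPM in WT input, and had no count in either WT IgG library. IP was above input in 3 of 3 libraries, with a log2 fold change of 2.52 ± 0.21 (SE, adjusted p 9.85e-11 by edgeR). Over IgG the IP was at least 31.5-fold higher, taking 3 counts per library as the floor of the IgG libraries (edgeR adjusted p 3.07e-11).

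JUND showed the widest gap between pull-down and input. It was at 6.75, 5.39 and 4.93 CPM in WT input, 201, 234 and 243 CPM in WT IP and 246 and 306 CPM in WT IgG. The log2 fold change over input was 5.33 ± 0.10 (SE, adjusted p 5.17e-23 by edgeR) for IP and 5.64 ± 0.11 (SE, adjusted p 1.89e-22 by edgeR) for IgG, so that both antibodies gave a gap of this size, and IP over IgG was -0.31. JUND has the highest GC content of the 10 genes, and with a GC trend removed IP over input was 2.65 and IP over IgG -1.42. JUNB, also GC-rich, was at 50.3, 50.8 and 48.8 CPM in IP and 51.4 and 48.7 CPM in IgG, and its log2 fold change over input of 1.27 turned to -0.40 with the GC trend removed. JUN was at 410.0, 402 and 424 CPM in IP and 421 and 422 CPM in IgG, a log2 fold change of 0.75 ± 0.05 (SE, adjusted p 2.94e-13 by edgeR) for IP over input that stayed under 2-fold.

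IER2 was at 46.1, 48.3 and 46.9 CPM in WT IP and 43.3 and 41.1 CPM in WT IgG, 1.31 and 1.17 above input on the log2 scale, of which 0.05 was left for IP with the GC trend removed. FOSL1 was at 7.69, 6.61 and 7.27 CPM in IP against 2.72 and 4.73 CPM in IgG, and its log2 fold change over IgG of 0.94 ± 0.27 (SE, adjusted p 0.00281 by edgeR) fell short of 2-fold. It was called over IgG, and so over both controls, without WT IgG replicate 2 (1.39) and with total count scaling (1.07). FOSB was at 1.57, 0.979 and 2.75 CPM in IP and 1.16 and 0.206 CPM in IgG, which overlapped, and its call against input was lost without WT IP replicate 3 (0.85), without WT input replicate 1 (1.25) and without WT input replicate 2 (1.005). FOS was at 4.38, 3.75 and 5.23 CPM in IP and 3.88 and 5.56 CPM in IgG, and its libraries overlapped with those of the input. With the GC trend removed, 2 of the 10 genes, JUND and EGR1, were still more than 2-fold above input.

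DUSP1 was the gene with the least RNA in IP relative to both controls. It was at 176, 165 and 169.7 CPM in WT input, 258 and 203 CPM in WT IgG and 49.97, 44.2 and 41.1 CPM in WT IP. All IP libraries lay below all libraries of both controls, with a log2 fold change of -1.91 ± 0.08 (SE, adjusted p 6.79e-17 by edgeR) over input and -2.37 ± 0.09 (SE, adjusted p 3.52e-17 by edgeR) over IgG. MYC was also lower in the pull-downs than in input, at 92.4, 78.1 and 85.02 CPM in IP and 81.1 and 74.7 CPM in IgG, but by less than 2-fold, and the libraries of IP and IgG overlapped.

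**Figure D3:**
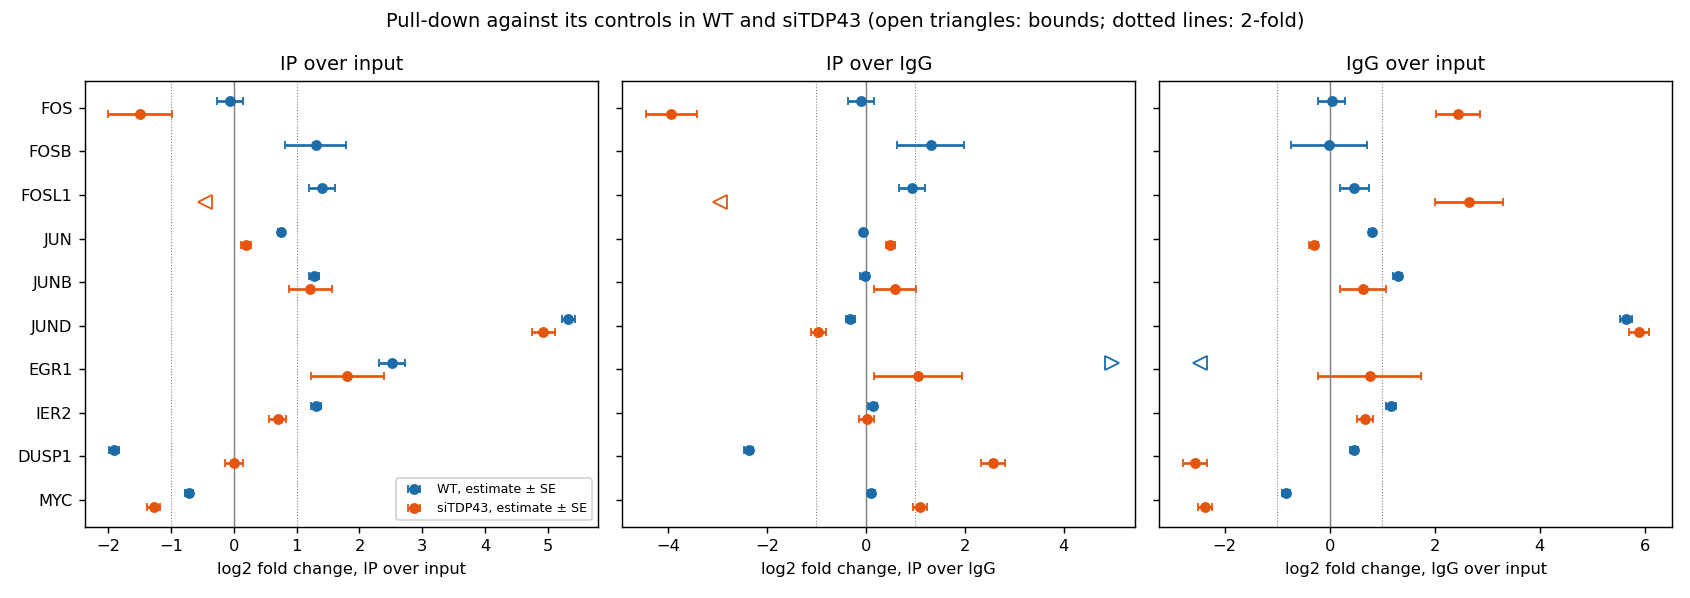
Log2 fold change (x axis) of IP over input, IP over IgG and IgG over input for each gene (y axis) in WT and in siTDP43, estimate ± SE from edgeR with 2 or 3 libraries per group, dotted lines at 2-fold. Open triangles are bounds where a group was at the floor of 3 counts per library, and FOSB in siTDP43 is left out. JUND lies near 5.33 for IP over input and near 5.64 for IgG over input in WT.

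In siTDP43 cells none of the 9 genes tested was above both input and IgG, against 10.3% of 12746 genes. FOSB did not pass the filter on low counts there, with 2, 0 and 0 counts in IP, 0, 0 and 0 in IgG and 6, 10 and 4 in input, and the ratio of IP to input was 0.272 (95% counting interval 0.0308 to 1.12). Against input 3 genes were higher (26.8% of all genes) and 3 lower (25.4%), and against IgG 2 were higher (34.0%) and 2 lower (15.0%). Between IgG and input 3 were higher (24.7%) and 2 lower (41.0%). The genes higher in IgG than in input were JUND, FOS (2.44 on the log2 scale) and FOSL1 (2.65), and those lower were DUSP1 (-2.56) and MYC (-2.36). The median log2 fold change of the 9 genes was 0.19 for IP over input and 0.49 for IP over IgG, against -0.09 and 0.33 over all genes.

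JUND kept the widest gap to input, at 43.99, 35.05 and 37.4 CPM in siTDP43 IP and 71.96, 62.3 and 81.1 CPM in siTDP43 IgG against 1.14, 1.43 and 1.70 CPM in input. Its log2 fold change over input was 4.93 ± 0.18 (SE, adjusted p 1.63e-16 by edgeR) for IP and 5.89 for IgG, and every IP library lay below every IgG library. JUNB was at 7.13, 9.12 and 12.5 CPM in IP, and its log2 fold change over input of 1.22 ± 0.34 (SE, adjusted p 0.00263 by edgeR) lost its call without siTDP43 input replicate 2 (0.99) or siTDP43 IP replicate 3 (0.99) and turned to -0.55 with the GC trend removed. EGR1 was at 1.04, 1.01 and 1.25 CPM in IP, 1.81 ± 0.58 (SE, adjusted p 0.00700 by edgeR) over input. In IgG it had 0, 0 and 4 counts, and the difference between IP and IgG of 1.05 ± 0.89 (SE, adjusted p 0.293 by edgeR) was not detectable at this depth. It was called without siTDP43 IgG replicate 3, the library that held those counts (edgeR adjusted p 0.0207).

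DUSP1 and MYC were the 2 genes above IgG. DUSP1 was at 31.1, 31.9 and 25.9 CPM in IP and 5.14, 6.47 and 2.85 CPM in IgG, the latter from 14, 16 and 8 counts. Its log2 fold change over IgG was 2.57 ± 0.24 (SE, adjusted p 5.32e-09 by edgeR), while IP and input differed by 0.01 (edgeR adjusted p 0.969). MYC was at 77.9, 68.3 and 58.3 CPM in IP and 24.97, 37.2 and 29.9 CPM in IgG, with 1.09 ± 0.14 (SE, adjusted p 6.16e-07 by edgeR) over IgG and -1.27 ± 0.11 (SE, adjusted p 2.99e-10 by edgeR) over input. The first of these fell just under 2-fold without siTDP43 IP replicate 1 (0.996) or siTDP43 IgG replicate 1 (0.96).

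FOS and FOSL1 were the 2 genes below both controls. FOS was at 0.297, 0.608 and 0.747 CPM in IP, from 4, 6 and 6 counts, and at 8.81, 6.47 and 7.83 CPM in IgG. Its log2 fold change was -3.94 ± 0.52 (SE, adjusted p 7.22e-07 by edgeR) over IgG and -1.49 ± 0.50 (SE, adjusted p 0.0100 by edgeR) over input, the latter without a call when siTDP43 IP replicate 1 was left out (-1.12). FOSL1 had no count in any siTDP43 IP library and 4, 10 and 4 counts in IgG, so IP was at least 7.71-fold lower than IgG and at least 1.37-fold lower than input (edgeR adjusted p 1.77e-05 and 0.00261). The second call rests on the fitted fold change, and the bound itself is under 2-fold. JUN was at 119.8, 128 and 118 CPM in IP and 86.6, 82.5 and 78.3 CPM in IgG, and IER2 at 45.5, 41.8 and 36.6 CPM and 35.98, 44.5 and 36.3 CPM, both within 2-fold of either control.

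Whether the pull-down differed between the genotypes was tested as an interaction over all 17 libraries. The change of IP over input from WT to siTDP43 was positive for 1 gene (31.5% of 15165 genes), DUSP1, and negative for 7 (36.3%), with JUNB and EGR1 not called. DUSP1 changed by 1.77 ± 0.14 (SE, adjusted p 9.28e-14 by edgeR), since its IP was far below input in WT and near it in siTDP43. From WT to siTDP43 its mean went from 170 to 32.9 CPM in input and from 45.1 to 29.7 CPM in IP. The fall of input thus enters this change. JUN changed by -0.71 ± 0.09 (SE, adjusted p 3.77e-09 by edgeR), IER2 by -0.75 and MYC by -0.70. IER2 and MYC were higher in siTDP43 input than in WT input, which enters their changes too. FOS changed by -1.60 ± 0.51 (SE, adjusted p 0.00640 by edgeR), and its call was lost without siTDP43 IP replicate 1 (-1.23). FOSL1 changed by at most -1.85, a bound set by the 0 counts in siTDP43 IP. FOSB was called on 2 counts in siTDP43 IP and has no usable size. JUND, at -0.53, lost its call when any one of 8 of the 12 libraries was left out: WT input replicates 2 and 3, WT IP replicates 2 and 3, siTDP43 input replicates 2 and 3, and siTDP43 IP replicates 2 and 3.

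The change of IP over IgG was positive for 3 of the 10 genes (34.9% of all genes) and negative for 4 (25.9%). DUSP1 had 4.9999 ± 0.23 (SE, adjusted p 1.86e-20 by edgeR), MYC 1.04 ± 0.17 (SE, adjusted p 1.42e-06 by edgeR) and JUN 0.60 ± 0.10 (SE, adjusted p 2.55e-06 by edgeR). FOS had -3.80 ± 0.56 (SE, adjusted p 2.12e-07 by edgeR), FOSL1 at most -3.89 and EGR1 at most -3.76, the latter since WT IgG held no count of it. The EGR1 value also rests on the 4 counts of siTDP43 IgG replicate 3, as without that library neither IgG group held a count, the change had no defined size and it was not called. JUND had -0.59 ± 0.17 (SE, adjusted p 0.00210 by edgeR), which turned to 0.73 with the GC trend removed. The 2 interactions share the IP libraries, and for JUN and MYC they had opposite signs. For both genes siTDP43 IgG lay lower against its input (-0.30 and -2.36) than WT IgG did (0.80 and -0.83). For DUSP1 IgG over input was 0.46 in WT and -2.56 in siTDP43, and for FOS it was 0.04 and 2.44. A shift of the IgG libraries thus enters these changes of IP over IgG.

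**Figure D4:**
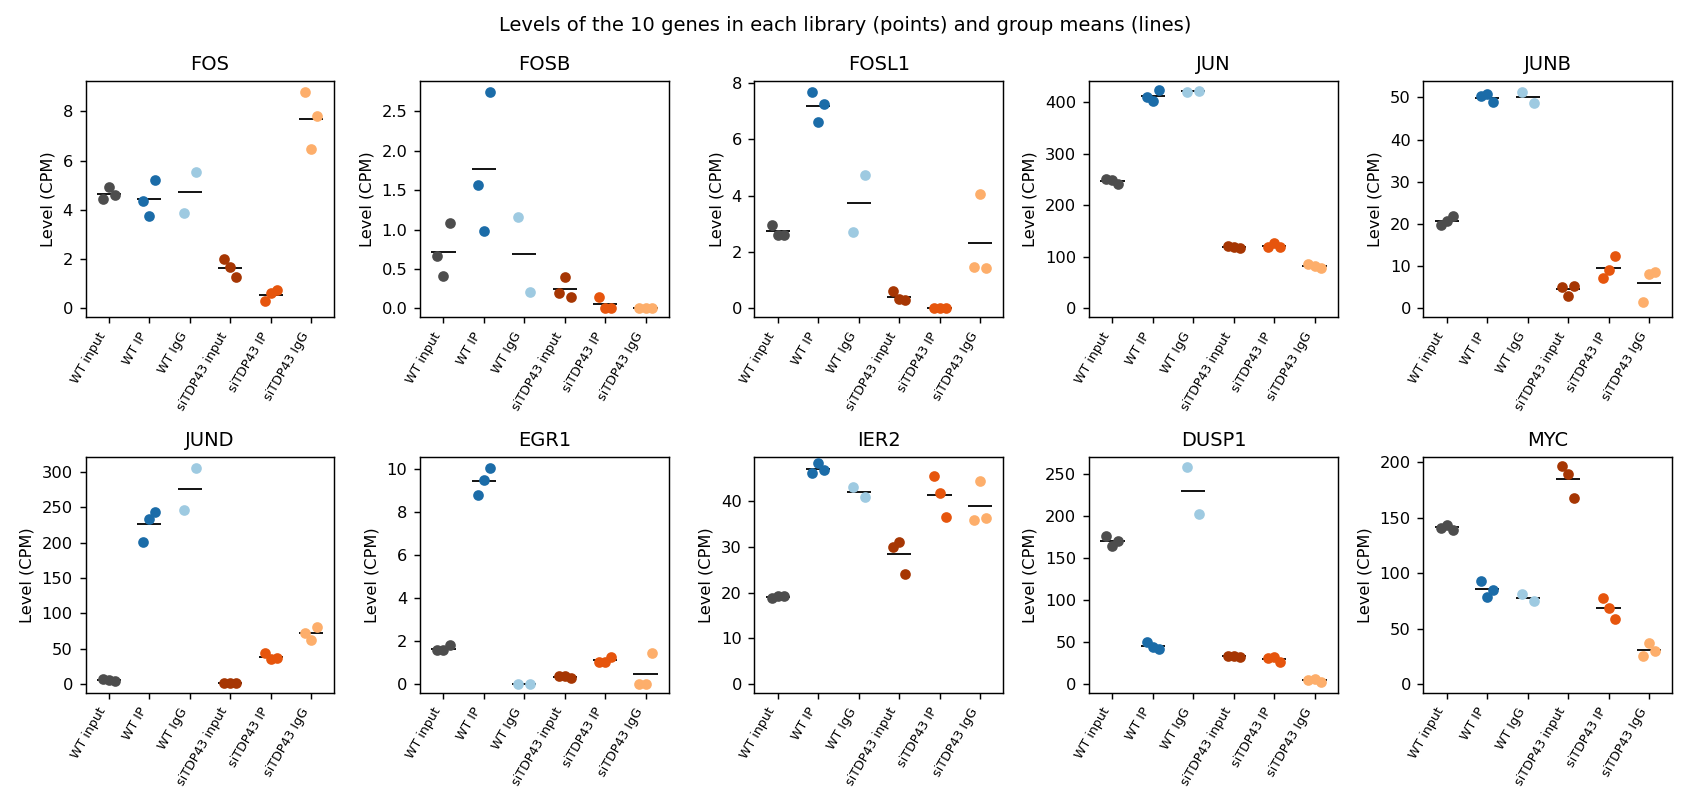
Level of each gene in CPM (y axis, linear, a scale of its own in each panel) in every library (points) of the 6 groups (x axis), with group means as lines, n = 3 libraries except WT IgG with 2. JUND is at 4.93 to 6.75 CPM in WT input and at 246 to 306 in WT IgG, and DUSP1 is lowest in siTDP43 IgG.

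Across the 6 groups, as the plot of levels by library shows, no pair of neighbouring groups overlapped in the order of JUND or of DUSP1. How many of all genes share this was not counted. JUND ran from WT IgG over WT IP, siTDP43 IgG, siTDP43 IP and WT input down to siTDP43 input, 194-fold between the highest and lowest mean. DUSP1 ran from WT IgG over WT input, WT IP, siTDP43 input and siTDP43 IP down to siTDP43 IgG, 47.7-fold. MYC was highest in siTDP43 input and lowest in siTDP43 IgG, 6.003-fold apart, and its levels in WT IP, WT IgG and siTDP43 IP overlapped from one to the next. IER2 varied least, 2.46-fold from WT IP to WT input.

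Among 10141 genes with a mean of at least 100 counts, those whose log2 CPM followed JUN most closely over the 17 libraries included PRR14 (Pearson r = 0.987) and WDR26 (0.982). For MYC the 3 closest were M6PR (0.983), BORA (0.974) and CPNE1 (0.972). These libraries fall into 6 groups that differ in depth and antibody, so the values describe the likeness of 2 profiles and carry no test.

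The 10 genes lie on 6 chromosomes of hg19, and no exon of any of them overlapped an exon of another gene in the table. FOS is at chromosome 14, 75745481 to 75748937, FOSB at chromosome 19, 45971253 to 45978437, FOSL1 at chromosome 11, 65659692 to 65667997 and JUN at chromosome 1, 59246463 to 59249785. JUNB is at chromosome 19, 12902310 to 12904125, JUND at chromosome 19, 18390563 to 18392432 and IER2 at chromosome 19, 13261282 to 13265718. EGR1 is at chromosome 5, 137801181 to 137805004, DUSP1 at chromosome 5, 172195093 to 172198203 and MYC at chromosome 8, 128748315 to 128753680.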

How the data were processed

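Poly(A) RNA of HEK293T cells was measured by acRIP-seq in 17 libraries, with groups and replicate numbers taken from the sample titles and genotype and antibody labels. Libraries followed SMART-seq2. For trimming the authors used Trim Galore 0.6.7, for alignment to hg19 STAR 2.7.10a, and for counting featureCounts 2.0.2. The deposited values are unnormalized counts for each gene. The labels name a mouse build, whereas hg19 is from the study's methods, and the gene names and positions in the table are human. Annotation release, strand setting and pair handling were not given in the sources used here. From 81.3 to 95.9% of counts between 1 and 20 were even, which is what counting each mate on its own would give. No molecular identifiers were used, so intervals and floors cover counting error only and treat each count as independent. If mates were counted on their own, the counting interval is too narrow. Bounds set by the floor of 3 counts are then too large. No column of the table was left out (0 unused). Replicate libraries differed by more than sampling noise (chi-square per degree of freedom 3.26 to 9.43).

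The test was that of edgeR 4.0.16 in R 4.3.3 (quasi-likelihood F test, two-sided, TMM, filterByExpr with a minimum count of 10), with Benjamini-Hochberg adjustment over all genes tested and adjusted p under 0.05. Pull-down contrasts within a genotype also needed a fold change above 2, and IP above both controls was called ac4C(+). Inputs were fitted over 6 libraries, WT over 8, siTDP43 over 9 and interactions over 17. A group with at most 3 counts in total or in every library counted as at the floor, and a fold against it as a bound. The 10 genes, the lists, the tests and the alternatives were chosen with earlier results of these data known. Genes named from each list were the 2 with the largest called rise and fall in input among genes averaging 100 counts or more over the 17 libraries (PPAN and MNT averaged less in the inputs alone), and for JUN and MYC the 3 genes with the highest correlation over the libraries. A gene that this rule gives for JUN is not reported here. Alternatives were DESeq2 1.42.0, its size factors, scaling by total count, all genes with any count, genes averaging 50 counts or more, removal of a GC trend (lowess span 0.3) from each library, the replicate number as a factor, all 17 libraries in 1 fit, a fold change above 5 over IgG, and leaving out each library. The procedure was tested on simulated data with known changes. Sequences were read from the hg19 reference at the positions in the table, and exon sequence was found for 23093 genes. Levels are relative within a library, as no use was made of the acetylated spike-in.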

Additional observations from a re-analysis of the deposited data

Results flagged for a closer look

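The pull-down of these genes against a control differed between WT and siTDP43 by the interaction test of edgeR over 17 libraries in the following cases, each a log2 change from WT to siTDP43. For IP over input they were FOS -1.60, JUN -0.71, JUND -0.53, IER2 -0.75, MYC -0.70 and DUSP1 1.77, with FOSL1 at most -1.85 since siTDP43 IP held no count of it. FOSB passed the same test with an edgeR adjusted p of 0.0341, from 2 counts in siTDP43 IP. For IP over IgG they were FOS -3.80, JUN 0.60, JUND -0.59, DUSP1 4.9999 and MYC 1.04, with FOSL1 at most -3.89 and EGR1 at most -3.76. The EGR1 value rests on the 4 counts of siTDP43 IgG replicate 3, without which neither IgG group held a count and it was not called. Over all genes 31.5% rose and 36.3% fell in the first comparison and 34.9% rose and 25.9% fell in the second. IgG over input also differed between WT and siTDP43, for DUSP1 with 0.46 and -2.56 and for FOS with 0.04 and 2.44. Input levels differed as well, for DUSP1 with means of 170 CPM in WT and 32.9 CPM in siTDP43, and enter the changes of IP over input. The part of depth, which was lowest in siTDP43 IgG, was not tested.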

How the results depend on the processing

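The 2 higher and 8 lower genes in input RNA kept their direction under every alternative in which they were tested, and the count of lower genes was 6 to 8. FOSB and EGR1 went untested in input with a mean of at least 50 counts. Removing a GC trend changed most: IP over input in WT then had 2 higher genes, IgG over input in WT 1 higher, IP over IgG in WT 2 lower, and the change of IP over IgG 6 higher. With that trend removed the log2 change turned to -0.40 for JUNB, WT IP over input; to -0.50 for IER2 and -0.13 for MYC, WT IP over IgG; to -0.0488 for JUN, -0.55 for JUNB, -0.55 for IER2 and -0.19 for DUSP1, siTDP43 IP over input; to -1.53 for JUNB and -0.90 for IER2, siTDP43 IgG over input; and to 0.73 for JUND and 0.80 for IER2 in the change of IP over IgG. With a mean of at least 50 counts FOS and FOSL1 went untested in siTDP43, where IP over input then had 1 lower gene (MYC), IP over IgG 1 lower (JUND, at -1.004 now past 2-fold) and IgG over input 1 higher (JUND). The same filter gave 0.0047 for FOS (WT IP over input) and -0.0228 for IER2 (siTDP43 IP over IgG). A fold change above 5 left 1 gene above IgG in siTDP43. Total count scaling (with FOSL1) and no low-count filter each gave 2 higher genes for WT IP over IgG. Total count scaling moved the median of all genes from -0.09 to -0.43 in siTDP43 IP over input and from -0.58 to -1.13 in siTDP43 IgG over input, and turned FOS to 0.0425 (WT IP over input) and 0.0293 (over IgG), JUN to 0.0771 and JUNB to 0.11 (WT IP over IgG), and JUN to -0.15 and DUSP1 to -0.33 (siTDP43 IP over input). Near 0 lay JUNB, WT IP over IgG, at 0.0031 with DESeq2 and 0.0032 with its size factors, IER2, siTDP43 IP over IgG, at -0.0014 and -0.00012, and FOS, WT IgG over input, at -0.0032 with no filter. DUSP1, siTDP43 IP over input, lay at -0.0711 with DESeq2, -0.0718 with its size factors, -0.0213 with no filter and -0.14 with all libraries in 1 fit.

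Same-numbered libraries hardly deviated together (40 pairs within and across genotypes, Pearson r from -0.03 to 0.08). The highest value was that of WT input and WT IP replicate 1. With 2 or 3 libraries per group this cannot show whether same-numbered libraries came from the same RNA. The replicate block left every count of called genes as it was, with 2 higher and 8 lower in input RNA, and gave 0.30 for FOSB (WT IgG over input) and -0.0026 for DUSP1 (siTDP43 IP over input).

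Leaving out 1 library at a time gave 1 to 2 higher genes for WT IP over IgG, with FOSB called without WT IP replicate 2 or WT IgG replicate 1 and FOSL1 without WT IgG replicate 2, and 1 to 3 for siTDP43 IP over IgG. Where WT IgG lost a library, the lone one was assumed to vary like the other groups. The range was -0.18 to 0.0530 for FOS, WT IP over input, -0.34 to 0.18 over IgG and -0.25 to 0.27 for IgG over input; -0.0563 to 0.0176 for JUNB, WT IP over IgG; -1.75 to 0.72 for FOSB, WT IgG over input; -0.0557 to 0.0935 for DUSP1, siTDP43 IP over input; -0.0411 to 0.13 for IER2, siTDP43 IP over IgG, and -0.14 to 0.0413 in the change over IgG; and -5.36 to 1.33 for EGR1, siTDP43 IgG over input, whose counts came from siTDP43 IgG replicate 3. JUND, siTDP43 IP over IgG, passed 2-fold without siTDP43 IP replicate 1 or siTDP43 IgG replicate 2 (-1.05 each). Except where shown, the cause was not tested. In siTDP43 IP, FOS rests on 4, 6 and 6 counts and FOSL1 on 0.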
